A study of Mus musculus with 6 samples.

Results

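The intermediate filament genes described here are Nes, Vim, Des, Krt7, Krt8, Krt18, Krt19, Lmna and Lmnb1, 9 named genes chosen by symbol among the 18822 genes with values. They were measured by RNA sequencing in glomeruli, the capillary tufts through which the kidney filters blood. The mice were C57BL/6J with diabetic kidney disease, and the 3 PR3_KO libraries came from knockouts of proteinase 3 (gene Prtn3), a protease that neutrophils store in their granules, the 3 WT libraries from wild-type mice. Both genotypes carried the disease, so no library shows the glomerulus without it. The sources used here do not give the allele, the age of the mice or the way diabetes was brought about. The design asks what loss of the protease changes in the diabetic glomerulus.

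Intermediate filaments are rope-like polymers that give cells and nuclei their mechanical strength. Which genes a cell uses is a mark of its type: keratins pair as a type II with a type I chain in epithelia, vimentin and desmin form filaments in mesenchymal, endothelial and muscle cells, nestin joins vimentin-type filaments, and the lamins line the nuclear envelope of nearly every cell. In the glomerulus nestin and vimentin mark podocytes, the epithelial cells that cover the capillaries, vimentin is also found in endothelial and mesangial cells, and desmin in mesangial cells. The keratins made by Krt8 and Krt18 belong to simple epithelia, among them the tubules and the parietal lining of Bowman's capsule, and keratins 7 and 19 to collecting duct and other ductal epithelia.

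Levels are FPKM, a fragment count divided by transcript length and by the mapped fragments of the library, and allow levels of different genes to be set side by side. Means carry the SD over 3 libraries (n = 3 each). Fold changes are PR3_KO minus WT of log2(FPKM + 1), with limma's SE, and understate the change of low genes. Whether each library is a separate mouse is not stated, so a p-value here reflects only how these samples scatter, and that scatter may be technical. In glomeruli, which hold several cell types, fewer cells of a type and less RNA per cell cannot be told apart.

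Depth could be estimated only roughly, and the targeted gene was too low for a firm check of the labels. Prtn3 was at 0.14, 0 and 0.07 FPKM in the PR3_KO libraries, against 0.46, 0.21 and 0.22 in the WT libraries. The estimate of depth, from the most common non-zero value of olfactory receptor genes taken as 1 fragment, was 15200000 fragments for 5 libraries and 13300000 for WT 1. These rest on values of 0.07 and 0.08 FPKM, which adjoin at 2 decimals, so the estimate cannot separate the libraries. Podocyte markers were present in every library (9 markers summed to 367 to 590 FPKM in PR3_KO and 658 to 1075 in WT), and so were proximal tubule transcripts (the phosphate transporter Slc34a1 at 3025.38 to 3214.81 in PR3_KO and 1074.35 to 1857.98 in WT). Of 10 proximal tubule markers 9 rose in PR3_KO, beside 11.7% of all tested genes. All 9 endothelial and all 8 macrophage markers fell, as did 5 of 9 podocyte, 5 of 8 mesangial and smooth muscle and 4 of 6 tested collecting duct markers, while 41.1% of all tested genes fell. After median-of-ratios scaling, under which 25.1% of all genes fell, 2 podocyte, 4 mesangial and smooth muscle and 3 collecting duct markers did. The counts of the endothelial and macrophage lists stayed the same. So did the 9 proximal tubule markers that rose, beside 22.5% of all genes. WT 2 had the highest podocyte marker score of the 6 libraries and the lowest proximal tubule score.

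Of the 9 genes, 7 fell in PR3_KO, 1 rose and 1 did not pass the test (limma, Benjamini-Hochberg adjusted p under 0.05), against 52.8% of 12388 genes that passed in either direction. All 9 had a mean of at least 1 FPKM over the 6 libraries, the level below which genes were not tested. Nes fell by the largest amount, followed by Vim and Des. Krt8 was the gene that rose, while its partner Krt18 and the other type II keratin Krt7 fell. The share that fell, 77.8%, stood beside 41.1% of all tested genes, and the share that rose, 11.1%, beside 11.7%. The genotypes did not overlap in 8 of the 9, or 88.9%, beside 65.1% of all tested genes. The median log2 fold change was -0.78 over the 9 genes and -0.26 over all tested genes. With median-of-ratios scaling, which sets the libraries level at their typical gene, the median of all genes moved by 0.23 to -0.03 and that of the 9 genes to -0.53. Then 5 of the 9 fell, or 55.6%, beside 25.1% of all tested genes, and 1 rose, beside 22.5% (47.6% in either direction). Without PR3_KO 3 and WT 2 together, 5 of the 9 fell and 1 rose, while 3922 of all genes tested in that setting fell and 1009 rose. The number tested there is not given, so no share of all genes stands beside the 5 of 9.

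**Figure D1:**
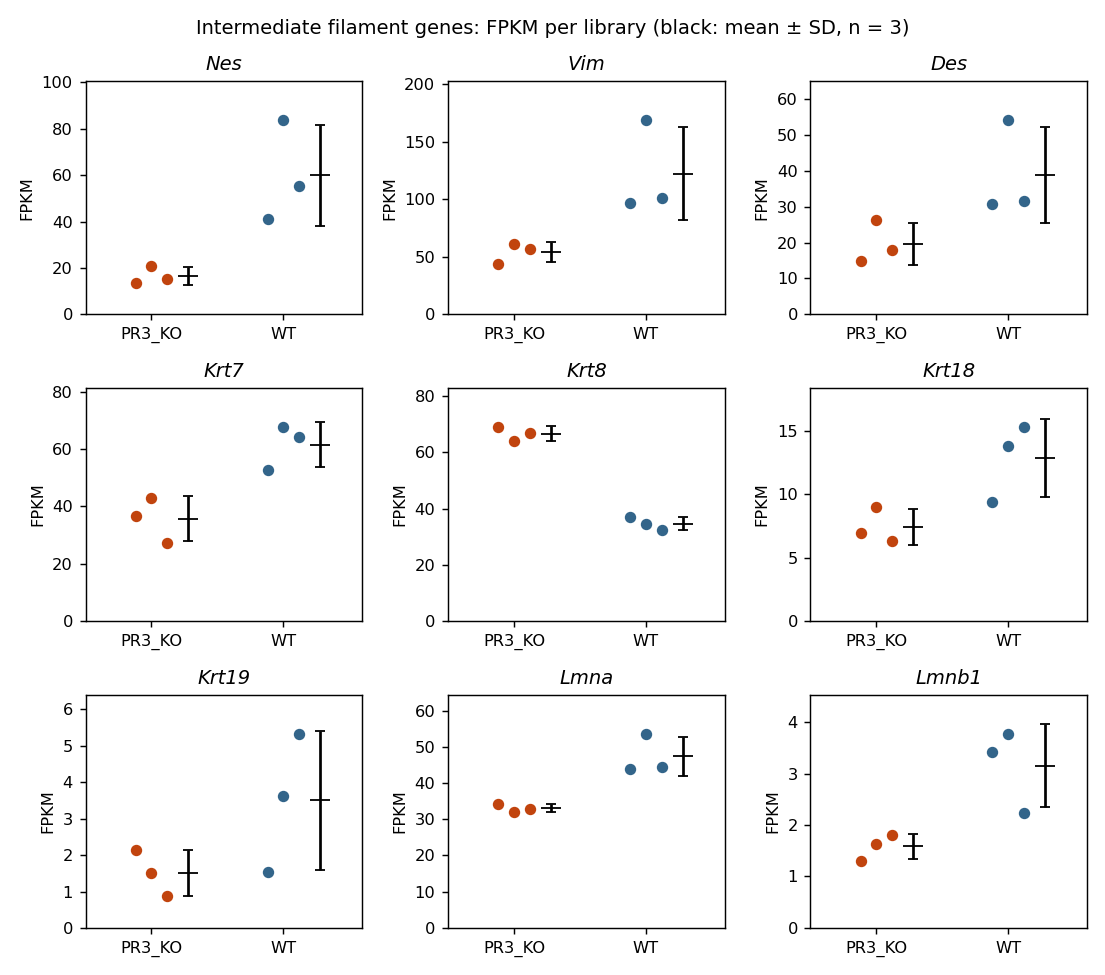
FPKM of each gene (vertical axis, from 0, a scale per gene) in the 3 PR3_KO libraries (left, orange) and the 3 WT libraries (right, blue), with mean ± SD in black. Krt8 lies between 63.88 and 69.09 in PR3_KO, above all WT libraries, and the genotypes overlap in Krt19.

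By level, Krt8 came first in PR3_KO and Vim in WT. In PR3_KO libraries the mean FPKM ran from Krt8 (66.6) through Vim (54.2), Krt7 (35.7), Lmna (33.1), Des (19.7), Nes (16.4) and Krt18 (7.42) to Lmnb1 (1.58) and Krt19 (1.51). Within that order Krt7 and Lmna overlapped, as did Des and Nes, and Lmnb1 and Krt19. In WT libraries it ran from Vim (122) through Krt7 (61.5), Nes (60.0), Lmna (47.3), Des (38.9), Krt8 (34.6) and Krt18 (12.8) to Krt19 (3.50) and Lmnb1 (3.15). There the 5 genes from Krt7 to Krt8 each overlapped the next, and so did Krt19 and Lmnb1.

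Nes, which encodes nestin, is carried on chromosome 3 from 87971093 to 87980451 (plus strand; coordinates here are those of RefSeq on GRCm38.p6). Its level was 13.33, 20.79 and 15.11 FPKM for PR3_KO 1, 2 and 3, against 41.04, 83.81 and 55.21 in WT 1, 2 and 3. Every WT library was above every PR3_KO library, and WT 2 was the highest. The means were 16.4 ± 3.90 in PR3_KO and 60.0 ± 21.8 in WT, 3.66-fold lower in PR3_KO, with a log2 fold change of -1.77 (SE 0.26, limma adjusted p = 0.00172). This change ranked 204 from the lowest among 12388 genes. After scaling by median of ratios it was -1.52, and -1.50 without WT 2.

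Vim, on chromosome 2 from 13574311 to 13582826 (plus strand), encodes vimentin, the filament on which nestin assembles. It was measured at 44.08, 61.41 and 57.24 FPKM in the PR3_KO libraries and at 97.18, 169.16 and 100.91 in the WT libraries. The genotypes did not overlap, and WT 2 stood above the other WT libraries. The fold change was -1.13 (SE 0.23, limma adjusted p = 0.00551), from means of 54.2 ± 9.05 in PR3_KO and 122 ± 40.5 in WT.

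Des, on chromosome 1 from 75360292 to 75368579 (plus strand), encodes desmin, the filament of muscle and, in rodents, of mesangial cells, and is known to be induced in injured podocytes of rats. Its values were 14.86, 26.16 and 18.02 FPKM for PR3_KO 1, 2 and 3, against 30.73, 54.18 and 31.64 in WT 1, 2 and 3. Replicate 2 was the highest library of each genotype, and PR3_KO 2 came close to the lowest WT library. Des fell by 0.93 on the log2 scale (SE 0.26, limma adjusted p = 0.0197). The call was lost without PR3_KO 1 (-0.76, limma adjusted p = 0.0756), without PR3_KO 3 (-0.89, limma adjusted p = 0.0579) and without PR3_KO 3 and WT 2 together (-0.63, limma adjusted p = 0.0900). In the Ensembl-based GENCODE M21 annotation the antisense gene Gm15179 overlaps 368 nucleotides of the Des span, and without knowledge of the strand setting their reads cannot be told apart there.

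The 3 genes did not fall in equal measure. The ratio of Nes to Vim, which no scaling of a library can change, was 0.302, 0.339 and 0.264 in PR3_KO 1, 2 and 3, against 0.422, 0.495 and 0.547 in WT 1, 2 and 3. All PR3_KO ratios lay below all WT ratios, a difference of -0.69 on the log2 scale (two-sided exact permutation p = 0.1, n = 3 each, the smallest that 3 against 3 can give; 0.2 adjusted over the 6 pairs compared). The ratio of Vim to Des was 2.97, 2.35 and 3.18 in PR3_KO libraries and 3.16, 3.12 and 3.19 in WT libraries, and the genotypes overlapped. Their difference was -0.17 (two-sided exact permutation p = 0.3, n = 3 each, 0.36 adjusted). Summed over Nes, Vim and Des, the level was 72.3 to 108 FPKM in PR3_KO and 169 to 307 in WT.

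Set against marker lists in the same library, Nes differed between genotypes against every list but the endothelial one, the podocyte list among them. Des overlapped between genotypes against the mesangial list, as it did against 4 others. These differences were chosen after the values were seen, from 72 pairs of a gene and a marker list, of which 35 did not overlap between genotypes. The lists themselves shifted, with medians from -3.08 (macrophage) to 0.96 (proximal tubule). How many of all tested genes separate from them was not counted, so the 35 is not a result about the 9 genes. Nes less the mean of 9 podocyte markers was -0.71 ± 0.0488 in PR3_KO and 0.38 ± 0.105 in WT on the log2(FPKM + 1) scale, a difference of -1.09 with no overlap. Less the 9 endothelial markers Nes was -1.96 ± 0.174 in PR3_KO and -1.55 ± 0.370 in WT, and the genotypes overlapped (difference -0.41). Des less the mean of 8 mesangial and smooth muscle markers was 0.56 ± 0.147 in PR3_KO and 0.63 ± 0.0744 in WT, with overlap (difference -0.07). Vim less the podocyte markers was 0.96 ± 0.120 in PR3_KO and 1.41 ± 0.116 in WT without overlap, and less the endothelial markers -0.29 ± 0.0168 in PR3_KO and -0.52 ± 0.280 in WT with overlap. The summed FPKM of the endothelial markers was 794 to 1102 in PR3_KO and 2166 to 2631 in WT, and that of the mesangial and smooth muscle markers 114 to 189 in PR3_KO and 221 to 343 in WT. The 8 macrophage markers, cells that also make vimentin, summed to 86.9 to 137 FPKM in PR3_KO and 608 to 1282 in WT. The part of these cells in the levels of Nes, Vim and Des was not tested.

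**Figure D2:**
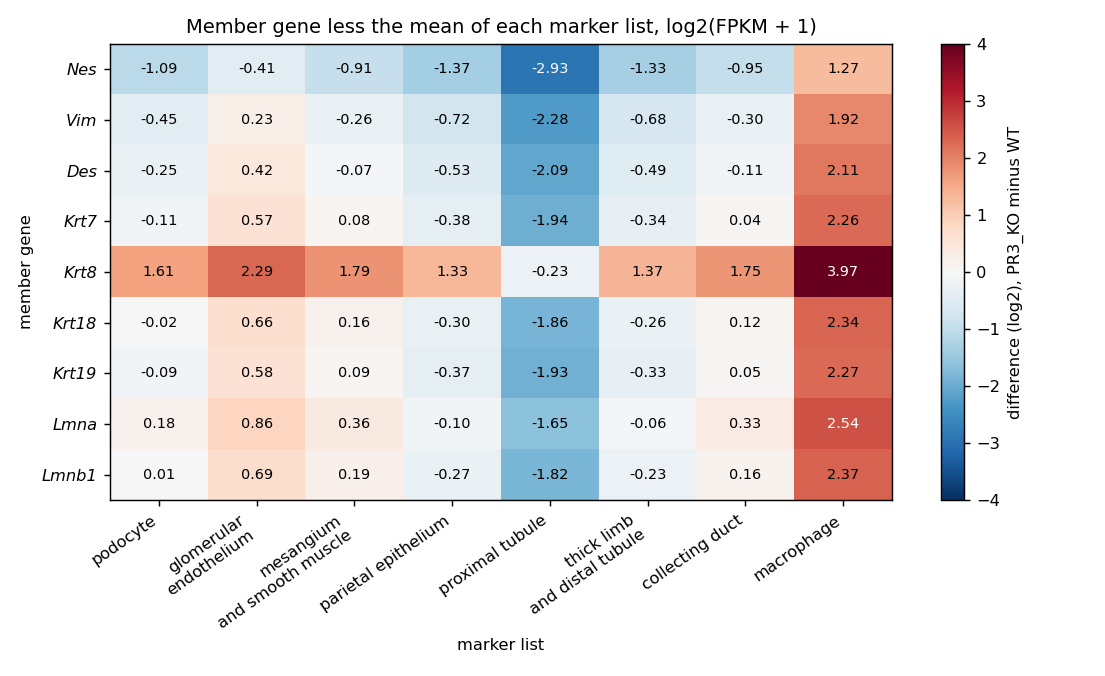
Each cell gives the PR3_KO minus WT difference (log2, colour scale from -4 to 4) of a gene less the mean log2(FPKM + 1) of a marker list in the same library, for the 9 genes (rows) and 8 lists with at least 5 tested markers (columns). Krt8 is near the proximal tubule list (-0.23) and above the other lists, and Nes is below all lists but the macrophage one.

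Among keratins, Krt8 rose while Krt7 and Krt18 fell. Krt8 encodes the type II chain that pairs with keratin 18, and lies on chromosome 15 from 101996711 to 102004342 (minus strand). PR3_KO 1, 2 and 3 had 69.09, 63.88 and 66.87 FPKM, against 37.02, 34.36 and 32.37 for WT 1, 2 and 3. Both genotypes were tight, with coefficients of variation of 3.92% in PR3_KO and 6.75% in WT, and they lay far apart. Krt8 was 1.93 times as high in PR3_KO as in WT by the means (66.6 ± 2.61 and 34.6 ± 2.33), with a log2 fold change of 0.93 (SE 0.10, limma adjusted p = 0.000776). It ranked 292 from the highest of 12388 genes and was at 1.19 with scaling. GENCODE M21 lists 1 pseudogene named for it, Krt8-ps, and the long non-coding gene Gm36026 overlaps 271 nucleotides of its span on the opposite strand. Pseudogenes under other names were not searched for, in Krt8 or in the other genes. Whether reads were assigned uniquely is not given in the sources used here, so the level of Krt8 carries that uncertainty.

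Krt18 encodes the type I partner of keratin 8 and lies beside it on chromosome 15, from 102028216 to 102032026 (plus strand), 23873 nucleotides away with 0 protein-coding genes between them in RefSeq. Its values were 6.97, 8.99 and 6.31 FPKM in the PR3_KO libraries and 9.38, 13.78 and 15.32 in the WT libraries. The groups did not overlap, but PR3_KO 2 and WT 1 lay close together. Krt18 fell by 0.70 on the log2 scale (SE 0.19, limma adjusted p = 0.0167). The call was lost with median-of-ratios scaling (-0.46, limma adjusted p = 0.0719), without PR3_KO 1 (-0.67, limma adjusted p = 0.0574), PR3_KO 3 (-0.61, limma adjusted p = 0.0581) or WT 3 (-0.57, limma adjusted p = 0.0565), and without PR3_KO 3 and WT 2 together (-0.54, limma adjusted p = 0.0998).

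The promoter windows of these neighbours, 250 bases before to 50 after the annotated start (RefSeq, GRCm38.p6), are shown since the genes form 1 filament and moved apart. The Krt8 window lies at chr15:102004293-102004592 on the minus strand and the Krt18 window at chr15:102027966-102028265 on the plus strand, both written 5′ to 3′, with TATAAA on either strand in capitals.
Krt8: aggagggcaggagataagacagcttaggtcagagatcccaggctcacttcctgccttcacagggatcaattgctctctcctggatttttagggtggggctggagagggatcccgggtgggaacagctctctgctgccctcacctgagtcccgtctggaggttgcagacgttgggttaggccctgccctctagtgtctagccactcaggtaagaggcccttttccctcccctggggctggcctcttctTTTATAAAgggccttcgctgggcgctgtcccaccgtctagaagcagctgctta
Krt18: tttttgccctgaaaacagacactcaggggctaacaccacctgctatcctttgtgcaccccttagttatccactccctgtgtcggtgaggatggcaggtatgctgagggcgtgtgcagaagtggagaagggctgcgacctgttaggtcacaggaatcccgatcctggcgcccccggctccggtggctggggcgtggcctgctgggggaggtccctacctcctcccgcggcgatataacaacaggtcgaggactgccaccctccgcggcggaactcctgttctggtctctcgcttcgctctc
The Krt8 window held TATAAA once on each strand, in overlapping positions, and the Krt18 window did not hold it. Over all 32851 RefSeq windows of this length 13.6% held TATAAA. Neither window held the box CCAAT on either strand, which 37.4% of all windows did. The same was so of GGGCGG, found in 35.7% of windows, and of TGANTCA, found in 7.81%. Their content of G and C was 58.0% for Krt8 and 61.3% for Krt18.

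The ratio of Krt8 to Krt18 within a library was 9.91, 7.11 and 10.6 in PR3_KO 1, 2 and 3, against 3.95, 2.49 and 2.11 in WT 1, 2 and 3. Every PR3_KO ratio was above every WT ratio, and the mean log2 ratio was 3.18 ± 0.309 in PR3_KO and 1.46 ± 0.467 in WT. The difference of 1.72 had an exact two-sided permutation p of 0.1 (n = 3 each), the smallest possible here, and 0.2 adjusted over 6 pairs. It stayed between 1.53 and 1.98 when each library was left out in turn.

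Krt7, a type II keratin of ductal epithelia, lies on the same chromosome from 101412403 to 101427806 (plus strand). PR3_KO 1, 2 and 3 had 36.66, 42.92 and 27.37 FPKM, against 52.69, 67.80 and 64.06 for WT 1, 2 and 3, without overlap. Krt7 fell by 0.79 (SE 0.17, limma adjusted p = 0.00753), and still passed after that scaling at -0.53 (limma adjusted p = 0.0396). The antisense gene Gm671 overlaps 1269 nucleotides of its span.

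Krt19, a type I keratin that lacks a tail domain, lies on chromosome 11 from 100140810 to 100145926 (minus strand). It was low and variable, with 2.13, 1.51 and 0.89 FPKM for PR3_KO 1, 2 and 3, against 1.54, 3.62 and 5.34 for WT 1, 2 and 3. WT 1 lay among the PR3_KO libraries. The log2 fold change was -0.78 (SE 0.33) and did not pass (limma adjusted p = 0.0843), and without WT 1 it was -1.14 and passed (limma adjusted p = 0.00943). The lowest of these values stood for about 21 fragments at the estimated depth, if spread over the longest annotated transcript. The ratio of Krt19 to Krt8 was 0.0308, 0.0236 and 0.0133 in PR3_KO libraries and 0.0416, 0.105 and 0.165 in WT libraries, without overlap (difference -2.07, exact two-sided permutation p = 0.1, n = 3 each, 0.2 adjusted). That of Krt7 to Krt19 overlapped, at 17.2, 28.4 and 30.8 in PR3_KO libraries and 34.2, 18.7 and 12 in WT libraries (two-sided exact permutation p = 0.7, n = 3 each, 0.7 adjusted).

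Summed over Krt7, Krt8, Krt18 and Krt19, keratin FPKM came to 115, 117 and 101 in PR3_KO 1, 2 and 3, against 101, 120 and 117 in WT 1, 2 and 3. The sums overlapped in FPKM as deposited, whereas the make-up differed. Median-of-ratios scaling divides the PR3_KO libraries by 0.8849 to 0.9375 and the WT libraries by 1.074 to 1.152. It therefore raises the PR3_KO sums and lowers the WT sums, so the overlap is not a sign of equal keratin totals. The shares within a library do not depend on scaling. The share of Krt8 was 60.2%, 54.5% and 65.9% in PR3_KO libraries and 36.8%, 28.7% and 27.6% in WT libraries. The share of Krt7 was 31.9%, 36.6% and 27.0% in PR3_KO libraries and 52.4%, 56.7% and 54.7% in WT libraries, where it led.

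**Figure D3:**
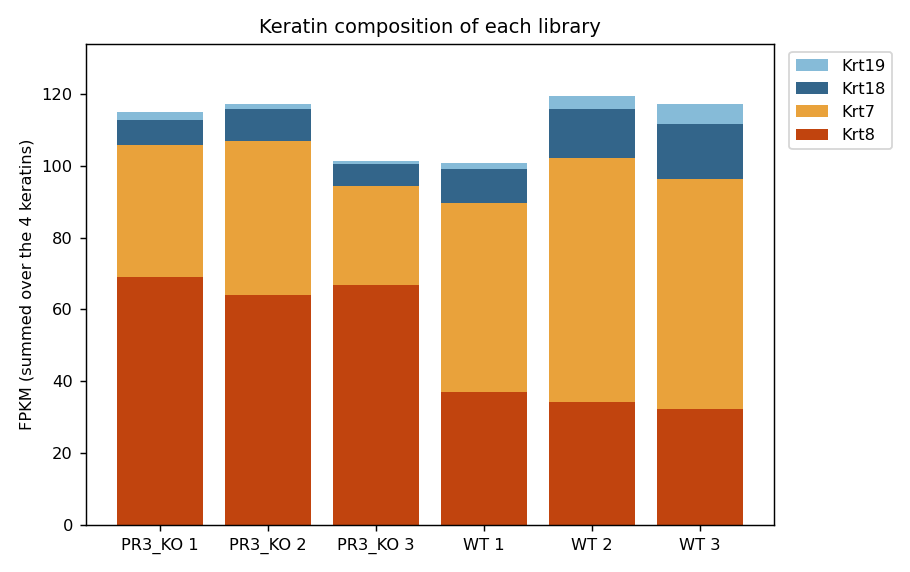
Stacked bars give the FPKM (from 0) of Krt8, Krt7, Krt18 and Krt19 in each PR3_KO library (left) and WT library (right). The totals as deposited run from 101 to 117 in PR3_KO and from 101 to 120 in WT, with Krt8 the larger part in PR3_KO and Krt7 in WT.

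Against tubular markers of the same library, also chosen after the values were seen, Krt8 overlapped between genotypes against the proximal tubule list alone, and Krt7 and Krt18 against several lists, the collecting duct among them. Krt8 less the mean of 10 proximal tubule markers was -2.91 ± 0.0552 in PR3_KO and -2.68 ± 0.345 in WT, with overlap (difference -0.23). Less the mean of the other 7 marker lists it was 1.33 to 3.97 higher in PR3_KO than in WT, without overlap. The proximal tubule list alone had a median log2 fold change above 0 (0.96), and the medians of those 7 ran from -3.08 to -0.20. The separation from those 7 lists thus holds both the rise of Krt8 (log2 fold change 0.93) and the fall of the lists. The part of each was not tested. How many other genes behave in this way was not counted. Krt7 less the mean of 6 collecting duct markers was 1.19 ± 0.0739 in PR3_KO and 1.15 ± 0.267 in WT (difference 0.04), and Krt18 -0.92 ± 0.105 in PR3_KO and -1.05 ± 0.136 in WT (difference 0.12), both with overlap. They also overlapped against the podocyte list, where the difference was -0.11 for Krt7 and -0.02 for Krt18, and against the mesangial and parietal lists. The summed FPKM of the proximal tubule markers was 48930 to 65470 in PR3_KO and 7730 to 22830 in WT, and that of the collecting duct markers 129 to 164 in PR3_KO and 186 to 376 in WT. The 6 urothelial markers were low throughout, with sums of 0.66 to 2.14 in PR3_KO and 1.43 to 2.04 in WT. Of 7 parietal epithelium markers 2 rose, or 28.6%, beside 11.7% of all genes, and 3 fell, or 42.9%, beside 41.1%, with sums of 47.1 to 48.7 in PR3_KO and 48.6 to 55.5 in WT. The part of these cells in the keratin levels was not tested.

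Lmna encodes lamins A and C and Lmnb1 encodes lamin B1, all of them nuclear lamins, and both genes fell in PR3_KO. Lmna, on chromosome 3 from 88481148 to 88509932 (minus strand), had 34.20, 32.09 and 32.95 FPKM in PR3_KO 1, 2 and 3, compared with 43.92, 53.65 and 44.46 in WT 1, 2 and 3. The PR3_KO libraries lay close together, with a coefficient of variation of 3.21%, and below all WT libraries. The log2 fold change of -0.50 (SE 0.11, limma adjusted p = 0.00661) was the smallest of the 7 falls. The call was lost with median-of-ratios scaling (-0.24, limma adjusted p = 0.0855).

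Lmnb1, on chromosome 18 from 56707813 to 56753424 (plus strand), known to be lost from senescent cells, was at 1.31, 1.64 and 1.80 FPKM in the PR3_KO libraries and 3.43, 3.78 and 2.24 in the WT libraries. The groups did not overlap, with WT 3 nearest to PR3_KO. These values stood for about 57 to 160 fragments at the estimated depth, if spread over the longest annotated transcript. Lmnb1 fell by 0.67 (SE 0.17, limma adjusted p = 0.0134), by 0.93 with a pseudocount of 0.1 and by 0.49 with median-of-ratios scaling. The ratio of Lmna to Lmnb1 was 26.1, 19.6 and 18.3 in PR3_KO libraries and 12.8, 14.2 and 19.8 in WT libraries, with overlap (two-sided exact permutation p = 0.3, n = 3 each, 0.36 adjusted). Of the proliferation list, whose genes are active in dividing cells as lamin B1 often is, 4 of 7 tested genes fell, or 57.1%, beside 41.1% of all genes, with a median of -0.65. These were the replication gene Mcm5 (-0.88), the DNA clamp Pcna (-0.72), the mitotic genes Birc5 (-0.66) and Top2a (-0.65) (limma adjusted p = 0.00207, 0.00214, 0.0278 and 0.0295). After scaling by median of ratios 2 of the 7 fell, beside 25.1% of all genes. The calls of Birc5 (-0.46, limma adjusted p = 0.0800) and Top2a (-0.50, limma adjusted p = 0.0613) were lost. Again 2 fell without PR3_KO 1, without WT 1, without WT 2 or without PR3_KO 3 and WT 2 together, but 6 without WT 3. Of all genes, 3873, 4731, 4443, 3922 and 4640 fell in these settings, in that order, against 5091 with all libraries.

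**Figure D4:**
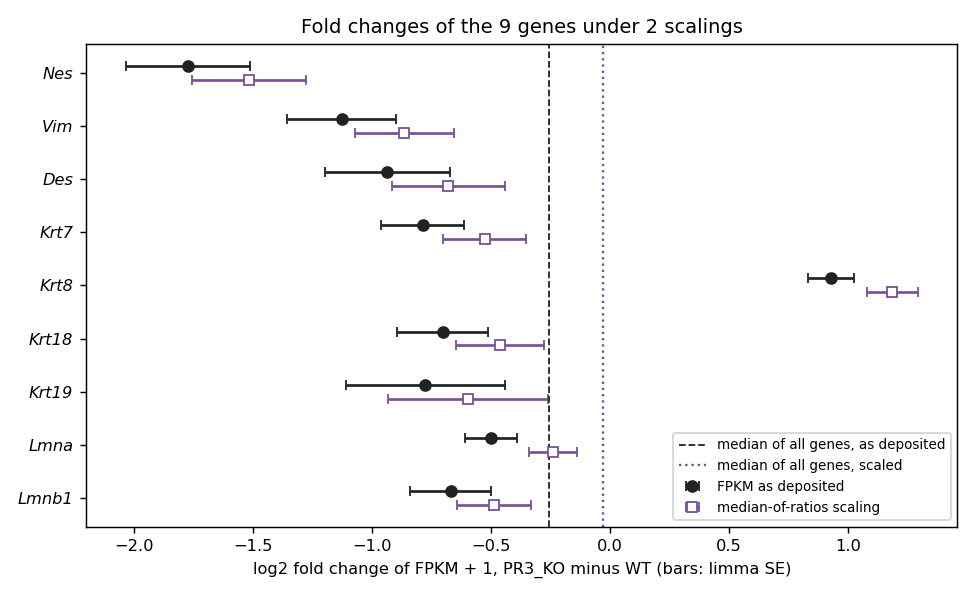
Log2 fold change of FPKM + 1 (PR3_KO minus WT, bars are limma SE) of the 9 genes as deposited (filled circles) and with median-of-ratios scaling (open squares), with the median of all tested genes under each (dashed at -0.26, dotted at -0.03). Krt8 lies at 0.93 and 1.19, and the other genes lie between -1.77 and -0.24.

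As profiles over the 6 libraries, genes of 1 class were often the most alike among the 9, but each gene had closer ones outside the 9. Likeness was taken as the root mean square difference of log2(FPKM + 1) less each gene's mean, where 0 is an identical profile. Genes of similar fold change therefore tend to come out near. Among the 9 genes the nearest pairs were Krt7 and Krt18 (0.143), Vim and Des (0.157) and Lmna and Lmnb1 (0.191). Nes and Krt8 were the farthest apart (1.40), and the gene nearest to Krt8 among the others was Lmna (0.722). Among all other tested genes, those nearest to Nes were Phf11d (0.0948), Gimap4 (0.0971) and Mndal (0.106). Nearest to Krt8 were Igfbp4 (0.0470), Dab2 (0.0496) and D2hgdh (0.0548), and nearest to Krt7 were Mal2 (0.0372), Rhcg (0.0502) and Ly6g6d (0.0577). For Krt18 the nearest 2 were Serpinb6a (0.0731) and Defb11 (0.0743). Speg and Cldn5 came nearest to Des (0.0737 and 0.0915), Tmem229b, Cysltr2 and Pla2g4a to Vim (0.0679 to 0.0739), Dennd4a, Blzf1 and Hnrnpd to Lmna (0.0257 to 0.0308), Tril, Hey2 and Piezo1 to Lmnb1 (0.0505 to 0.0606) and Ddit4, Apela and Cbr2 to Krt19 (0.186 to 0.204).

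Few other filament genes were well expressed. Of 21 further keratins, 16 were in the files and 2 reached a mean of 1 FPKM. Krt80 averaged 20.7 ± 4.35 FPKM in PR3_KO and 25.7 ± 5.37 in WT, and Krt10 at 2.26 ± 0.170 in PR3_KO and 1.95 ± 0.169 in WT. In limma 0 of the 2 passed, and 0 had an unadjusted p under 0.05 (Krt80 -0.30, limma adjusted p = 0.228; Krt10 0.14, limma adjusted p = 0.317). After scaling by median of ratios Krt10 passed as higher in PR3_KO (0.32, limma adjusted p = 0.0405). Krt20, a keratin known from urothelium and gut and named after its values were seen, was at 0.47, 0.41 and 0.41 FPKM in PR3_KO and 0.07, 0.10 and 0.14 in WT, and passed when no filter on low values was used (0.37, limma adjusted p = 0.00262).

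Of 11 other filament genes (type III and IV genes, lens filaments and Lmnb2), Lmnb2 alone reached a mean of 1 FPKM. Its level was 2.84 ± 0.664 FPKM in PR3_KO and 3.37 ± 0.245 in WT and did not pass (-0.20, limma adjusted p = 0.285). With no filter, 4 of the others fell, which are named after their values were seen: Nefh (-0.52), Synm (-0.64), Nefm (-0.25) and Gfap (-0.22). In that setting 5547 of all genes fell, out of 18822 less the 591 at 0 in every library. Synm, whose product synemin joins desmin and vimentin filaments, was at 0.31, 0.57 and 0.45 FPKM in PR3_KO and 1.29, 1.17 and 1.27 in WT (limma adjusted p = 0.00422). The neurofilament gene Nefh was at 0.13, 0.10 and 0.16 FPKM in PR3_KO and 0.59, 0.62 and 0.65 in WT (limma adjusted p = 0.00221). All 4 lay below the filter in the main comparison.

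Of the proteins that anchor filaments to junctions and to other parts of the cytoskeleton, 3 of 11 tested genes rose and 3 fell, 27.3% in each direction, beside 11.7% and 41.1% of all genes. Those that fell were Macf1 (-0.83), a linker of microtubules and actin, Jup (-0.63), the junction protein plakoglobin, and Plec (-0.46), the general filament linker plectin (limma adjusted p = 0.00303, 0.00346 and 0.0190). Evpl, which encodes envoplakin of epithelial desmosomes, rose and averaged 6.59 ± 0.968 FPKM in PR3_KO and 3.15 ± 0.985 in WT (log2 fold change 0.89, limma adjusted p = 0.00560). Also higher were Pkp3, a desmosomal plakophilin (0.52, limma adjusted p = 0.00569), and Perp, a desmosomal membrane protein named after its values were seen (0.54, limma adjusted p = 0.0194). After scaling by median of ratios 4 rose and 2 fell, beside 22.5% and 25.1% of all genes, and the list's median of -0.20 turned to 0.06. The call of Plec was lost there (-0.22, limma adjusted p = 0.142).

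Of 8 chaperones of filaments, 2 fell, or 25.0%, beside 41.1% of all genes, and 1 rose, or 12.5%, beside 11.7%. Hspb1, a small heat shock protein that binds filaments, averaged 38.8 ± 11.7 FPKM in PR3_KO and 105 ± 36.2 in WT (-1.40, limma adjusted p = 0.00457), and the cochaperone gene Bag3 fell by 0.62 (limma adjusted p = 0.00415). Hspa8, the constitutive chaperone, averaged 1194 ± 79.4 FPKM in PR3_KO and 772 ± 31.2 in WT (0.63, limma adjusted p = 0.00586). Cryab, a chaperone of desmin named after its values were seen, was at 53.1 ± 8.35 in PR3_KO and 66.6 ± 11.7 in WT and did not pass (limma adjusted p = 0.128).

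Of 18 partners and processing enzymes of the lamins, 8 fell, or 44.4%, close to the 41.1% of all genes, with a median of -0.29. Nrm, the inner nuclear membrane protein nurim, averaged 2.85 ± 0.246 FPKM in PR3_KO and 7.77 ± 1.13 in WT (-1.18, limma adjusted p = 0.000816). Syne1, the nuclear anchor nesprin-1, fell by 1.10, Tmpo, the lamin-binding thymopoietin, by 0.94, Lemd3, an inner membrane protein, by 0.71 and Lbr, the lamin B receptor, by 0.55 (limma adjusted p = 0.00110, 0.000910, 0.00306 and 0.0263). The prelamin A protease gene Zmpste24, named after its values were seen, averaged 33.2 ± 1.03 FPKM in PR3_KO and 34.3 ± 1.93 in WT (-0.04, limma adjusted p = 0.705). After scaling by median of ratios 4 of the 18 fell and 1 rose, beside 25.1% and 22.5% of all genes. Lbr lost its call there (-0.31, limma adjusted p = 0.127). Without PR3_KO 1, 4 fell, and without WT 2, 5. The count of all genes that fell dropped as well, from 5091 to 3873 and 4443 in these settings.

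**Figure D5:**
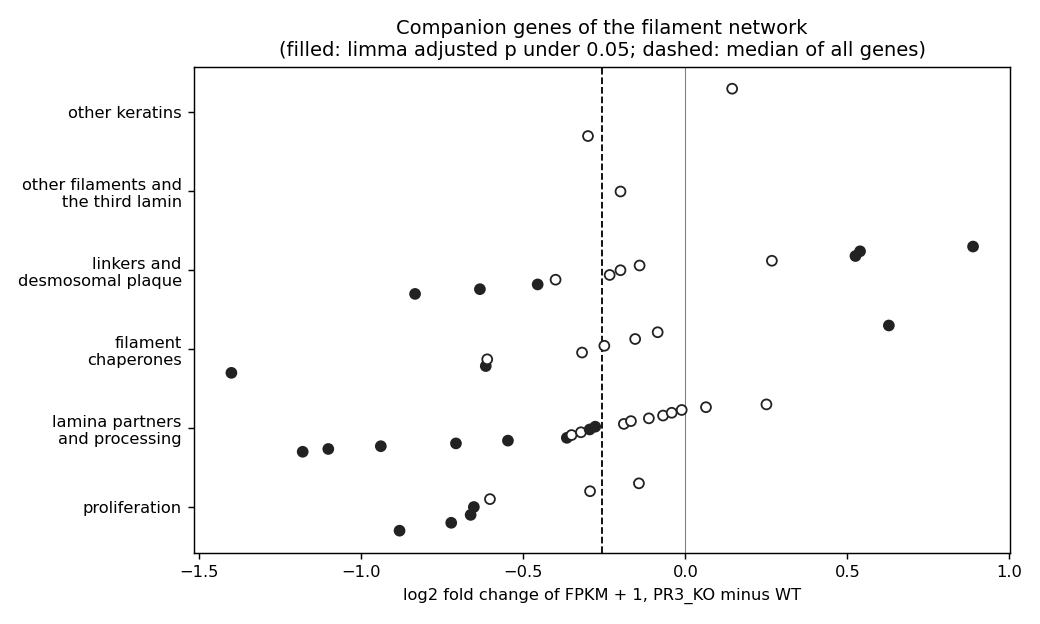
Log2 fold change of FPKM + 1 (PR3_KO minus WT) of each tested gene in 6 lists, filled where limma's adjusted p was under 0.05, with the median of all tested genes dashed at -0.26. Linkers lie on both sides of 0, from -0.83 (Macf1) to 0.89 (Evpl), and lamina partners run from -1.18 (Nrm) to 0.25.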

How the data were processed

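Per the labels' protocols, poly(A) RNA was selected from Trizol extracts of mouse glomeruli and sequenced on a DNBSEQ platform. Bowtie2 and the build GRCm38.p6 are named in the submitters' processing notes. The quantification tool, annotation, strand setting and filters were not given in the sources used here. The authors deposited FPKM values to 2 decimals, with no counts, as the file headers name them. Each file listed 22064 Entrez IDs, of which 3242 were empty in all files. Of the other 18822, 18770 matched a RefSeq symbol.

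Genes averaging 1 FPKM or more, 12388 in number, were fitted as log2(FPKM + 1) with limma 3.58.1 (statmod 1.5.0, R 4.3.3), genotype as the only term, trend and robust moderation, and Benjamini-Hochberg adjustment over all tested genes (threshold 0.05). The fit was tested on simulated data. Within-library ratios and gene-less-marker differences were computed from the same FPKM values, the ratios with an exact permutation test. Depth was estimated from the most common non-zero value of 53 olfactory receptor genes, seen in 3 to 7 genes per library and taken as 1 fragment, and is rough. Other steps used Python 3.11.15 with numpy 2.4.6, pandas 2.3.3, scipy 1.17.1 and matplotlib 3.10.9. The genes and lists were chosen with earlier results of these data known. All 9 genes were reported, and of each further list up to 5 genes by smallest adjusted p, or else the 2 highest in level. Some genes that these rules name are not reported here. Alternatives were another pseudocount, no filter, median-of-ratios scaling, plain moderation, a replicate block and libraries left out.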

Additional observations from a re-analysis of the deposited data

How the results depend on the processing

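Krt8, Nes, Vim, Krt7 and Lmnb1 kept their direction and call under all 12 alternatives. Of these Lmnb1 came nearest to losing its call, at -0.59 without PR3_KO 1 (limma adjusted p = 0.0497). Krt8 ranged from 0.88 to 1.19 and Nes from -2.01 to -1.46. Des kept its call in 9 of the 12, Krt18 in 7 and Lmna in 11, and Krt19 passed in 1. With median-of-ratios scaling 2789 genes were higher and 3113 lower in PR3_KO, against 1454 and 5091 as deposited. Leaving out each library in turn gave 916 (without PR3_KO 1) to 1518 higher and 3873 to 4731 lower genes, with 936 higher without PR3_KO 3, and 5 to 8 of the 9 filament genes lower and 1 higher. The filter on low values was applied anew in each of these settings, so the counts are not shares of the genes tested with all libraries. With the replicate number as a replicate block, 7 of the 9 fell and 1 rose, 4 of 8 chaperones fell in place of 2, and 1550 genes were higher and 5143 lower, of the same 12388. The deviations of same-numbered libraries correlated at 0.0677, 0.270 and -0.0866, and 3 of 6 libraries matched their own number best, so the numbers were not taken as pairs. With 3 libraries per genotype an exact test cannot go below 0.1. The files hold FPKM without counts, so no count-based test was run.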
